A study of Mus musculus with 10 samples.

Results

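The samples described here are 6 of the 10 in the series: whole adult testis of the mouse, 3 samples labelled WT and 3 labelled RNF20 conditional knockout. They were chosen by those labels, and the 20007 genes of their table were all used. Messenger RNA was enriched with oligo(dT), and the table gives each gene an estimated count, a length-scaled level (FPKM) and a TPM value in every sample. The samples are called WT 1 to 3 and KO 1 to 3 after the numbers in their titles.

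In the study's mice, Cre recombinase driven by the *Amh* promoter removes a floxed part of *Rnf20* in Sertoli cells, so other cells of the testis keep the gene. The study's controls carry the same floxed alleles without Cre (*Rnf20* Flox/Flox). For these adult samples the labels say WT, knockout, adult and untreated, and give neither the floxed alleles, the Cre line nor an age in weeks, and the study's text describes no sequencing of adult testis. The labels do not say that each sample is a separate animal, so the p-values here measure the spread between these samples.

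RNF20 and RNF40 form the E3 ligase that attaches ubiquitin to histone H2B, a mark of transcribed genes. Sertoli cells nurse the germ cells inside the seminiferous tubule and close the blood-testis barrier with their junctions, whereas Leydig cells, macrophages, vessels and fibroblasts lie outside the tubule. In a normal adult testis most RNA comes from germ cells, above all spermatocytes and spermatids, so the RNA of every other cell type takes a larger share of a library when germ cell RNA is lost.

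That shift sets the scaling. Fold changes below are KO over WT from edgeR with TMM scaling, which centres the bulk of genes, and TMM factors ran from 0.71 to 0.761 in WT and from 1.27 to 1.42 in KO. Under total-count scaling, the median log2 fold change of all tested genes moved from 0.01 to 0.87. FPKM values are scaled by total counts, and their ratios therefore carry that second, higher baseline. Total counts ran from 15431918 to 16574153 per sample.

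The KO libraries were not alike. Between 44 and 72 tested genes differed by over 4-fold between any pair of WT libraries, after 0.5 FPKM was added, and 39 did between KO 2 and KO 3. Against KO 2 and KO 3, however, KO 1 had 1042 and 1308 such genes. It lay more than 4-fold below both for 939 genes and above both for 22. Among the 939, KO 2 and KO 3 both lay above every WT sample for 207 genes, whereas they did so for 58.6% of all tested genes. KO 1 held almost no germ cell transcripts, and fewer Sertoli cell transcripts than KO 2 and KO 3. The counts of calls in the gene lists below are given with it and without it, as are several of the results that it decides. For other genes only the FPKM of each sample is given.

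*Rnf20* (chr4:49632005-49656887, RefSeq, GRCm38.p6) did not check the labels. Its FPKM was 4.89, 3.32 and 4.09 in WT 1 to 3, and 9.16, 5.76 and 9.85 in KO 1 to 3. The KO samples all lay above the WT samples on this scale. With TMM scaling the log2 fold change was 0.12 ± 0.27 (SE, n = 3 per group), with an edgeR adjusted p of 0.688, and without KO 1 it was 0.09. With total-count scaling it was 0.97. These values count reads over the whole gene in all cells, and a loss in Sertoli cells alone was not separable in them. Every direction below thus rests on the labels of the samples.

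*Rnf40* (chr7:127588698-127603605), the partner of *Rnf20*, had 33.4, 35.2 and 35.5 FPKM in WT and 15.9, 15.97 and 18.1 in KO. It fell by 1.92 on the log2 scale (SE 0.12, edgeR adjusted p = 4.56e-05), and by 1.06 with total-count scaling. Of 16 genes in a list for H2B ubiquitination, 1 was called higher and 4 lower, where a call needed an edgeR adjusted p under 0.001 and an absolute log2 fold change over 1. Over all 15919 tested genes, 23.0% were called higher and 23.7% lower. The counts of the list were the same without KO 1, but with total-count scaling there were 4 higher and 3 lower, beside 36.7% and 14.1% of all tested genes.

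*Usp22*, the deubiquitinase of the SAGA complex that removes ubiquitin from H2B, was the member called higher. It rose from 3.48, 2.58 and 3.17 FPKM to 29.4, 33.7 and 37.8 FPKM, a log2 fold change of 2.59 (SE 0.14, adjusted p = 3.4e-05). The ubiquitin hydrolases *Usp44* and *Usp49* and the E2 enzyme *Ube2b* were the other members called lower. *Usp44* went from 24.4, 23.2 and 53.9 FPKM to 0.07, 0.54 and 0.85 FPKM. *Ube2b* had 115.0, 123 and 117 FPKM in WT and 74.6, 83.1 and 90.7 in KO, and its fall by 1.56 with TMM scaling was 0.70 with total-count scaling, where it was not called. The PAF1 complex members *Paf1*, *Ctr9*, *Cdc73*, *Leo1* and *Rtf1*, which recruit the ligase to genes, had log2 fold changes between -0.60 and -0.09 with TMM and between 0.26 and 0.78 with total counts, and none was called. *Wdr61*, a further subunit of that complex, had a log2 fold change of 0.36 with TMM, not called, and of 1.23 with total counts, where it was called higher.

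Across the whole table, 3660 genes were called higher in KO and 3772 lower. Leaving out KO 1 gave 5270 (33.1%) and 5031 (31.6%). The split depended on the scaling: 49.2% of calls were higher with TMM, 72.2% with total counts (5836 and 2252 genes, 36.7% and 14.1%) and 14.8% when the Sertoli cell list was used as the reference (497 and 2856 genes). On FPKM, the groups did not overlap for 8742 tested genes that were higher in KO (54.9%) and 5164 that were lower (32.4%). Of the 15919 tested genes, 2404 passed the filter of 0.5 FPKM in at least 3 samples through 1 group alone. Those genes could not overlap on FPKM, and the shares of all tested genes given here include them.

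**Figure D1:**
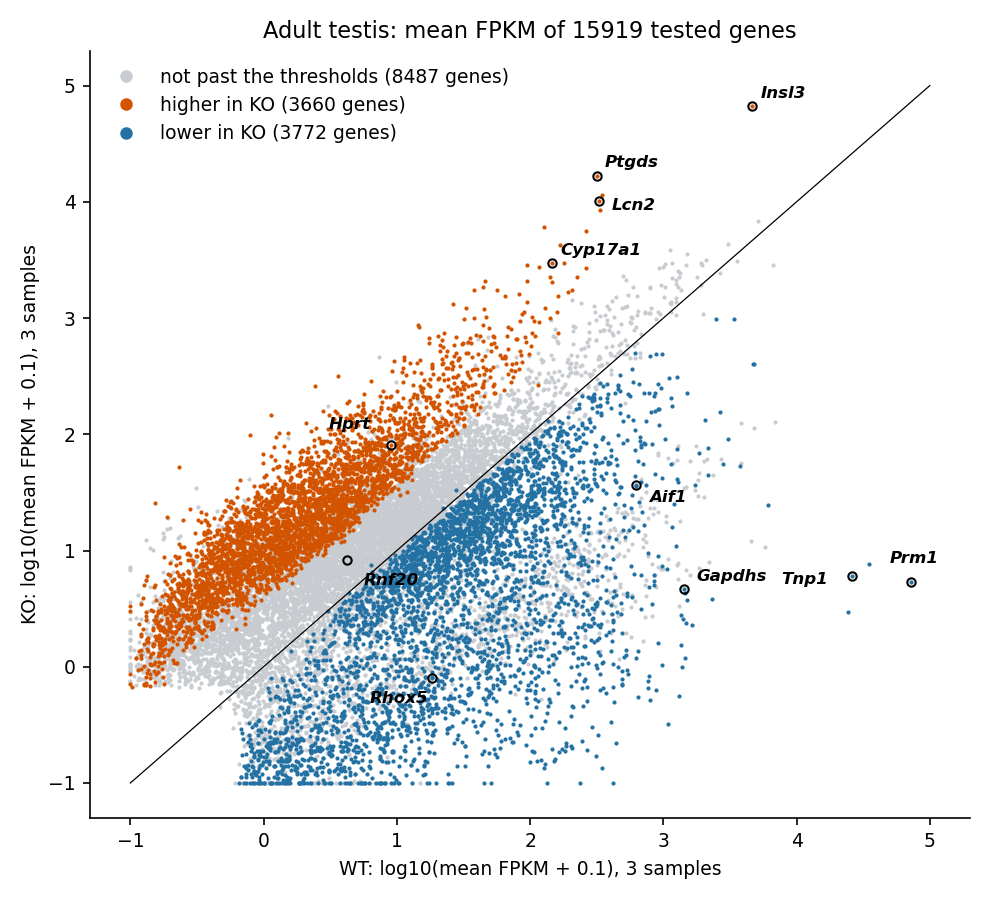
Mean FPKM of each tested gene in WT (x axis) and KO (y axis), 3 samples each, both as log10 after adding 0.1, with calls in colour and the line of equality. The 3660 genes called higher lie well above the line of equality, *Insl3* is the highest point of KO, and *Prm1* and *Tnp1* lie at the far right near the bottom.

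The most abundant transcripts changed hands. In WT the 4 highest were *Prm1*, *Tnp2*, *Tnp1* and *Prm2*, the protamines and transition proteins that replace histones in elongating spermatids. Together *Prm1*, *Prm2*, *Tnp1* and *Tnp2* made up 17.6%, 18.9% and 14.1% of TPM in WT, and 0.000189%, 0.00664% and 0.00147% in KO. In KO the highest was *Insl3*, the insulin-like hormone of Leydig cells, with 0.524%, 0.542% and 0.436% of TPM in WT and 6.81%, 10.1% and 8.89% in KO. The genes next to *Insl3* in KO were *Ptgds* (a prostaglandin D synthase), *Gstm1*, *Lcn2*, *Gstm2*, *Rps27*, *Apoe*, *Fabp3*, *Rpl38* and *Apoc1*. Apart from the ribosomal genes *Rps27* and *Rpl38*, which were not called, these were all called higher, with mean FPKM between 21.5 and 53.2 times that of WT. Fewer cells of a type and less RNA per cell cannot be told apart in such bulk samples.

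The upstream 250 bases of 3 of these genes are shown: *Insl3*, the highest in KO, and *Prm1* and *Tnp1*, which were picked from the 4 spermatid genes because they hold the word marked here. The sequences are from RefSeq on GRCm38.p6, 5′ to 3′ on the strand of the gene, ending at the base before the annotated start. Capitals mark a cyclic AMP response element-like word, TGANNTCA, in *Prm1* (chr16:10796824-10797073, minus strand) and *Tnp1* (chr1:73015900-73016149, minus strand). In *Insl3* (chr8:71689002-71689251, plus strand) they mark CAAGGTC, the word read by NR5A receptors such as SF1. Both words were searched on both strands.
Prm1: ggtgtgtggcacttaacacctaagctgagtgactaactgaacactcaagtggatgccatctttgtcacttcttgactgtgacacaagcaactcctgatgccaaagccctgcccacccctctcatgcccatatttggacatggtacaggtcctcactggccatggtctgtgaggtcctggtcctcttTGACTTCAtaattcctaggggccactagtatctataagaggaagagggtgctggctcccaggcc
Tnp1: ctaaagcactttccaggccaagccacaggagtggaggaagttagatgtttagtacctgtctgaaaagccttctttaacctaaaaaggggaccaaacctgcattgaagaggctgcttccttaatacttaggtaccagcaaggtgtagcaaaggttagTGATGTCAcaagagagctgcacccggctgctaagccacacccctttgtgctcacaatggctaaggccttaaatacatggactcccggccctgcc
Insl3: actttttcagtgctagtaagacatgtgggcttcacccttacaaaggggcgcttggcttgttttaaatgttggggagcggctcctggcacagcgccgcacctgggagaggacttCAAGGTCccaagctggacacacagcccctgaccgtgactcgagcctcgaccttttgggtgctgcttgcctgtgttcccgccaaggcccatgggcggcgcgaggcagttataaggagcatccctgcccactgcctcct

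The windows of *Prm2* and *Tnp2*, whose transcripts were lost alike, do not hold TGANNTCA. The marked words begin 64 bases before the start in *Prm1*, 94 in *Tnp1* and 137 in *Insl3*. Of the 13088 genes of the table with a single promoter entry, 1436 held TGANNTCA in this window. The share was 15.3% of 2407 genes called lower, 8.38% of 2326 called higher and 9.45% of 5557 tested and not called. CAAGGTC was in 3.03% of all, 2.78% of those called lower and 3.01% of those called higher. These are matches of letters, and no binding was measured.

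Germ cell transcripts were lower in KO, and more so for later stages. The median log2 fold change was -3.33 over 14 genes of early meiotic spermatocytes, -5.08 over 12 of late spermatocytes, -7.02 over 11 of round spermatids and -10.15 over 15 of elongating spermatids, beside 0.01 over all tested genes. Without KO 1 the medians were -2.62, -4.36, -6.31 and -9.69, beside 0.15. In the count of calls, 0, 2, 7 and 10 members of these lists were called lower with all 6 samples, beside 23.7% of all tested genes, and 12, 12, 11 and 15 without KO 1, beside 31.6%. With total-count scaling 0, 0, 4 and 10 were called lower, beside 14.1%. On FPKM the groups did not overlap for 12 of 14, 12 of 12, 11 of 11 and 15 of 15, with the KO samples lower, beside 32.4% of all tested genes. *Fscn3* of the elongating spermatid list, in all of these counts, passed the filter through the WT samples alone, so that it had to lie lower in KO. The list of elongating spermatids held 5.21%, 5.77% and 4.29% of counts in WT and 0.000222%, 0.00851% and 0.00638% in KO.

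**Figure D2:**
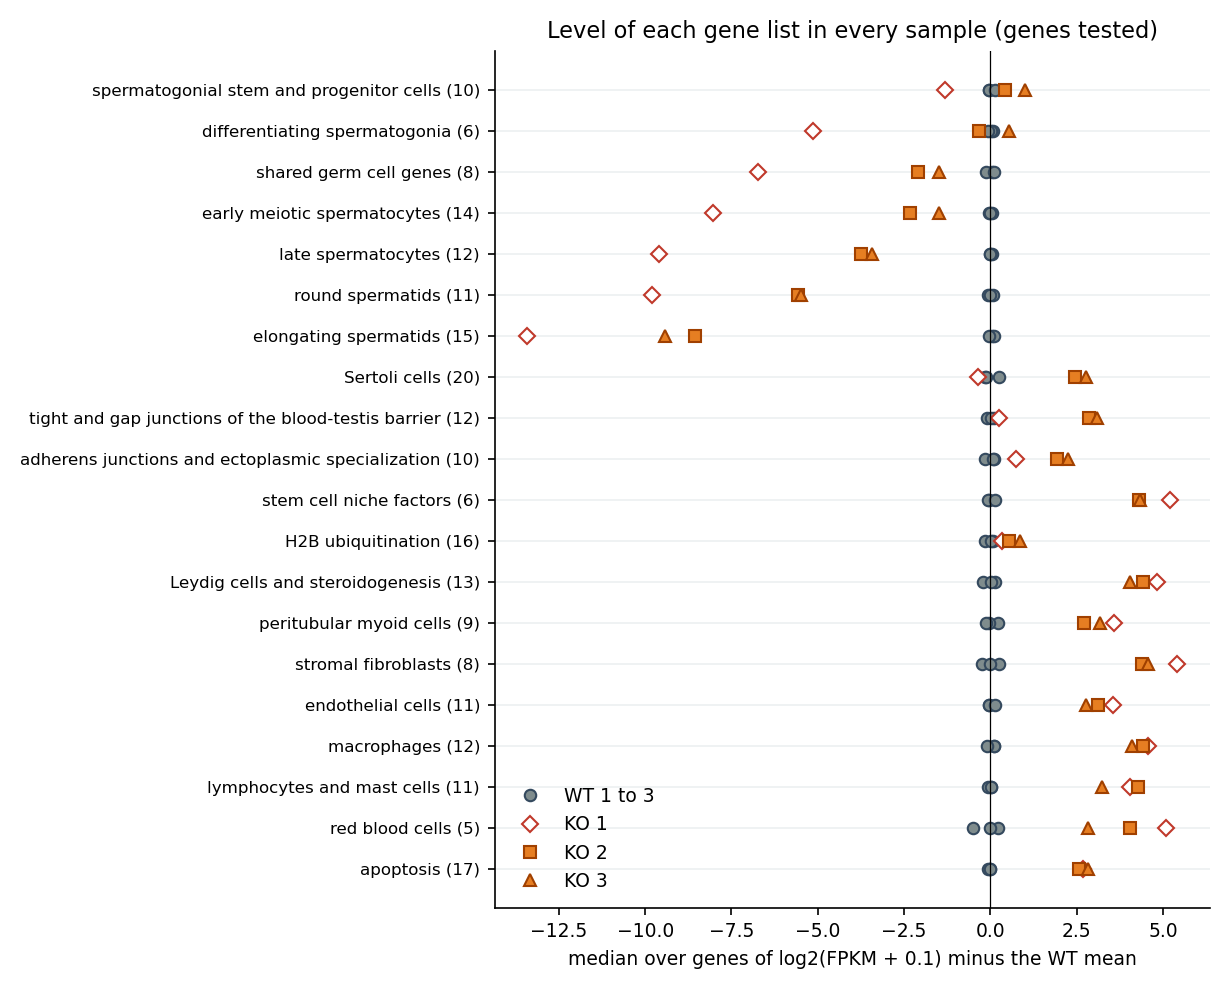
Median over the tested genes of each list of log2(FPKM + 0.1) minus the WT mean (x axis), with the number of genes in brackets and a point for each sample. The germ cell lists step down from spermatogonia to elongating spermatids in KO 2 and KO 3 and lie lower still in KO 1, and the Sertoli cell and junction lists lie lower in KO 1 than in KO 2 and KO 3 (adherens junctions at 0.75 against 1.94 and 2.25).

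*Prm1* (chr16:10796332-10796823), the major protamine, had the largest WT level of all. It had 73382, 89250 and 52396 FPKM in WT, and 0, 14.5 and 1.3 FPKM in KO, which were 0, 34 and 3 estimated counts. It fell by 14.61 on the log2 scale (SE 1.93, adjusted p = 0.000608). Every KO sample lay far below every WT sample. *Tnp1*, the transition protein that precedes the protamines, went from 27852, 29256 and 20991 FPKM to 0.74, 11.9 and 5.16 FPKM. *Gapdhs*, the glycolytic enzyme of the sperm tail, went from 1378, 1525 and 1405 FPKM to 0.71, 6.67 and 6.23 FPKM.

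Among the 15 largest falls of called genes were 11 genes with at most 3 counts in every KO sample. For these a fold is only a lower bound, set at 3 counts per library. *H2al2a*, a spermatid histone variant, was at least 1590-fold lower. *Nudt16l2* was at least 1090-fold lower and *Gm136* at least 722-fold lower. *H2al2a*, *Nudt16l2* and *Gm136* passed the filter on low values through the WT samples alone, so that they had to lie lower in KO. In all, 405 of the 15919 tested genes had at most 3 counts in each of the KO samples, and 82 of them had a WT mean over 10 FPKM. The reverse, at most 3 counts in each WT sample, held for 242 genes. Near-identical copies such as the *H2al* genes may share reads.

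Late spermatocytes are represented by enzymes and chaperones that germ cells switch on during meiosis. *Ldhc*, the lactate dehydrogenase of germ cells, had 3908, 3857 and 3746 FPKM in WT, and 0.07, 171 and 205 FPKM in KO. Its log2 fold change was -5.86 (SE 2.01, edgeR adjusted p = 0.0332), which did not pass the threshold. Without KO 1, far below the other KO samples, it fell by 5.14 (edgeR adjusted p = 2.46e-08). *Ddx4*, an RNA helicase present in germ cells of all stages, had 183, 169 and 199 FPKM in WT and 0.93, 21.4 and 33.6 in KO. *Sycp3*, a protein of the synaptonemal complex in meiosis, had 195, 192 and 191 FPKM and then 0.80, 42.5 and 72.4 FPKM.

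Both genes thus separated KO 1, with values under 1 FPKM, from KO 2 and KO 3, which kept intermediate levels. The list of shared germ cell genes behaved alike, with 0 of 8 called lower with all samples, beside 23.7% of all tested genes, and 7 of 8 without KO 1, beside 31.6%. *Dazl* was the exception, at 42.6, 30.9 and 36.7 FPKM in WT against 0.51, 21.0 and 39.8 in KO, where the groups overlapped.

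Transcripts of spermatogonia were mixed. *Stra8*, which is needed to enter meiosis, had 10.6, 9.43 and 8.43 FPKM in WT, 0 in KO 1, and 13.1 and 35.9 in KO 2 and KO 3. The latter libraries exceeded all WT samples, and with TMM scaling the log2 fold change was -0.13 with all samples and 0.57 without KO 1, neither of them called. *Utf1*, expressed in early spermatogonia, had 0.87, 1.35 and 1.76 FPKM in WT, 0.28 in KO 1, and 6.30 and 10.1 in KO 2 and KO 3. It was called higher without KO 1 (log2 fold change 1.85). *Id4* and *Gfra1*, which mark stem cells, were lower in all KO samples, *Id4* at 10.5, 10.8 and 12.3 FPKM against 1.56, 5.73 and 6.38.

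Of 14 genes listed for stem and progenitor cells, 10 passed the filter on low values (0.5 FPKM in at least 3 samples), and *Ret*, *Nanos2*, *Sall4* and *Eomes* did not. *Etv5*, *Zbtb16* and *Tspan8* were called higher and none lower, and *Zbtb16* had passed the filter through the KO samples alone. Of the 6 genes of differentiating spermatogonia, *Kit* was called higher and none lower. Both counts are near the 23.0% of all tested genes called higher. Without KO 1, *Utf1* was also called higher, and *Gfra1*, *Id4*, *Pou5f1* and, among differentiating genes, *Dmrtb1* lower, beside 33.1% and 31.6% of all tested genes. *Pou5f1* had passed the filter through the WT samples alone. With total-count scaling and without KO 1, *Gfra1*, *Id4* and *Pou5f1* were not called, and *Utf1* and *Dmrtb1* were. *Dmrtb1*, which controls the step from mitosis to meiosis, had 618, 638 and 508 FPKM in WT and 0.05, 26.6 and 29.8 in KO, like the meiotic genes. *Sohlh1* was not called but did not overlap, at 5.33, 5.07 and 4.83 FPKM against 0.20, 1.84 and 3.44. *Etv5*, *Zbtb16*, *Tspan8* and *Kit* were high in KO 1 as well, where *Stra8* and *Ddx4* were at or near 0. *Kit* is also known in Leydig cells and *Etv5* in Sertoli cells, and which cells these transcripts came from was not tested. *Kit* had 1.92, 1.96 and 1.95 FPKM in WT, and 36.9, 53.8 and 29.7 in KO. *Tspan8* went from 2.55, 3.22 and 4.13 FPKM to 156, 127 and 125 FPKM.

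Ratios within a sample cancel the scaling, apart from the 0.1 FPKM added to both sides. For 12 proteins with a germ cell form and a somatic form, the log2 ratio of germ cell to somatic FPKM was lower in every KO sample than in every WT sample. *Pgk2* to *Pgk1*, the forms of phosphoglycerate kinase, had log2 ratios of 6.03, 6.50 and 5.92 in WT and -9.81, -2.88 and -2.63 in KO. *Pgk2* had no count in KO 1, so that the first KO value is set by the added 0.1 FPKM and is only a bound. In 8 of the 12 pairs the germ cell form had at most 3 counts in KO 1, and in KO 2 and KO 3 in none. For *Gapdhs* to *Gapdh* the ratios were 2.42, 2.63 and 2.66 against -10.18, -7.72 and -8.04. Without KO 1 the shifts ran from -10.45 for *Gapdhs* to -1.56 for *Pabpc2* to *Pabpc1*, the poly(A)-binding proteins. Each exact two-sided permutation test gave p = 0.1, the smallest that 3 samples against 3 allow, and 0.1 after adjustment over the 12 pairs.

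**Figure D3:**
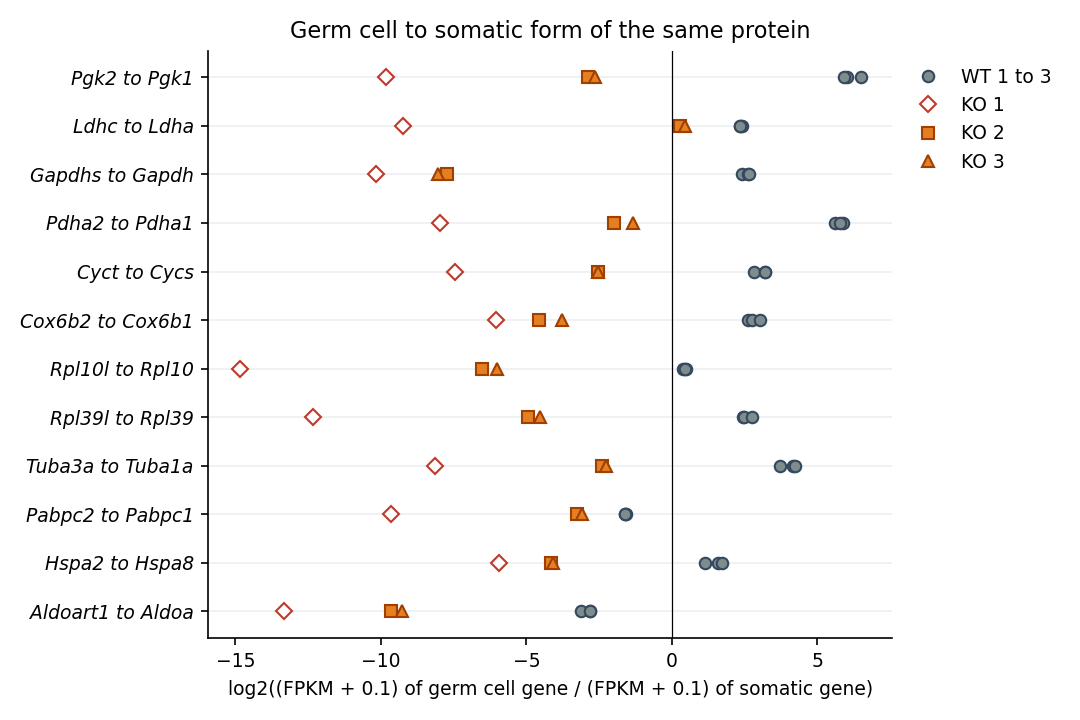
Log2 ratio of the germ cell form to the somatic form of 12 proteins, from FPKM + 0.1, with a point for each sample. All KO points lie left of all WT points of the same pair, and KO 1 lies left of KO 2 and KO 3 in each pair, with at most 3 counts of the germ cell form in 8 of them.

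Both sides of a ratio could move. *Pgk1* rose from 12.3, 8.53 and 11.9 FPKM to 89.9, 95.7 and 87.0 FPKM, and *Rpl10*, a ribosomal protein gene on the X chromosome, rose from 161, 139 and 124 FPKM to 2965, 2065 and 1799 FPKM. *Ldha* and *Pabpc1*, listed as somatic forms, were called lower. *Ldha* had 741, 759 and 741 FPKM in WT and 102, 141 and 149 in KO. *Tuba3a* and *Tuba1a* and the other pairs are similar in sequence, and reads may be shared within a pair.

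*Hprt* and *Actb* are often used as reference genes. *Hprt* had 10.9, 7.83 and 8.24 FPKM in WT and 75.7, 83.1 and 82.7 in KO, a log2 fold change of 2.30 with TMM and 3.16 with total counts (adjusted p = 4.86e-05 and 2.61e-05). *Actb*, the cytoskeletal actin, overlapped between the groups, at 302, 294 and 277 FPKM in WT and 358, 290.1 and 349 in KO. With TMM scaling its log2 fold change was -0.67 (edgeR adjusted p = 0.0167), lower in every KO sample and not called.

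Sertoli cell transcripts were high in KO 2 and KO 3 and uneven in KO 1. Of 20 genes listed, 19 lay above every WT sample in both KO 2 and KO 3 on FPKM, beside 58.6% of all tested genes. In KO 1, 12 of 20 lay below every WT sample and 7 above, beside 38.5% and 57.1% of all tested genes. *Inha*, a subunit of the hormone inhibin, was highest in KO 1, at 106, 69.0 and 61.8 FPKM in WT and 766, 245 and 368 in KO. With all samples 1 was called higher and 1 lower, beside 23.0% and 23.7% of all tested genes. Without KO 1 there were 14 higher and 1 lower, beside 33.1% and 31.6%. The list took 0.199%, 0.159% and 0.150% of counts in WT, 0.526% in KO 1, and 1.22% and 1.43% in KO 2 and KO 3. Its median log2 fold change was 1.35, and 1.85 without KO 1. Germ cell RNA was scarce in the same libraries, and a larger share does not show more RNA per Sertoli cell.

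*Sox9*, a transcription factor that defines Sertoli cells, had 2.34, 1.37 and 1.77 FPKM in WT, 1.20 in KO 1, and 9.86 and 12.7 in KO 2 and KO 3. *Cldn11*, which forms the tight junction strands of the barrier, had 34.9, 27.1 and 30.4 FPKM in WT, 32.8 in KO 1, and 227 and 293 in KO 2 and KO 3. Its log2 fold change was 1.69 (SE 0.70, adjusted p = 0.062), and without KO 1 it was 2.32 (adjusted p = 2.99e-07). KO 1 lay within the WT range for *Cldn11* and below it for *Sox9*, and the other KO samples lay several-fold above WT. *Amh*, the hormone of immature Sertoli cells whose promoter drives the Cre, had 0.88, 0.63 and 0.89 FPKM in WT, 1.70 in KO 1, and 13.4 and 19.5 in KO 2 and KO 3.

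**Figure D4:**
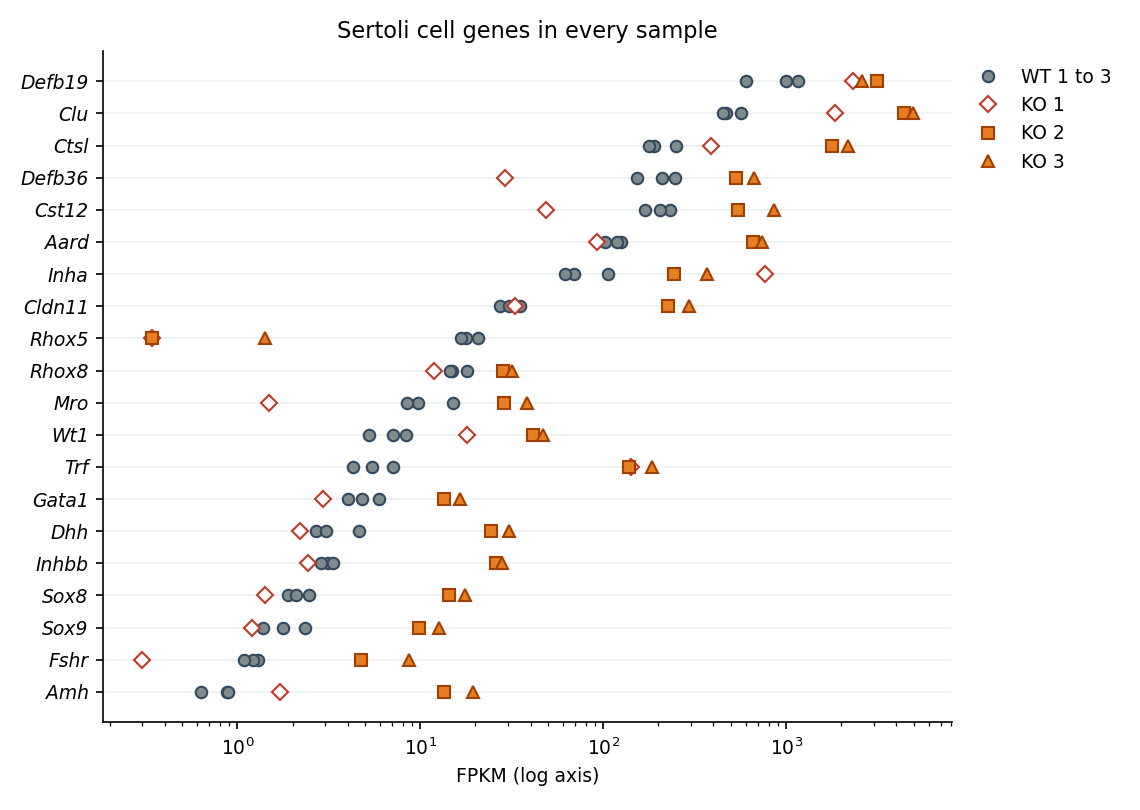
FPKM (log axis) of the 20 genes of the Sertoli cell list in every sample, ordered by the WT mean. KO 2 and KO 3 lie right of all WT points for 19 of 20 genes, *Rhox5* lies left in all KO samples, and KO 1 lies left of all WT points for 12.

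*Trf* and *Rhox5* moved the same way in all KO samples. *Trf*, transferrin, which carries iron to germ cells, rose from 7.06, 4.27 and 5.42 FPKM to 141, 137 and 185 FPKM (log2 fold change 3.94, SE 0.23, adjusted p = 3.89e-05). *Rhox5*, an X-linked homeobox gene that androgen keeps on in Sertoli cells, had 20.8, 17.7 and 16.6 FPKM in WT and 0.34, 0.34 and 1.41 in KO. It fell by 5.57 (SE 0.53, adjusted p = 0.000158), and by 5.15 without KO 1. The neighbouring *Rhox8*, also of Sertoli cells, had 18.1, 14.9 and 14.4 FPKM in WT and 11.9, 28.2 and 31.5 in KO, and was not called.

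To set Sertoli cell genes against each other, each was expressed relative to the mean of the other Sertoli genes in its sample. Of 43 such ratios, for Sertoli cell and junction genes, *Rnf20* and *Rnf40*, 15 were higher in KO without overlap, 13 were lower and 15 overlapped. In exact permutation tests no adjusted p was below 0.154. *Sox9* overlapped, with a mean difference of 0.12, and 0.38 without KO 1. *Cldn11* was higher, at 0.67, 0.71 and 0.86 in WT and 1.03, 1.66 and 1.63 in KO. *Rhox5* was lower, at -0.12, 0.07 and -0.05 in WT and -5.53, -7.83 and -6.38 in KO. It is part of the reference of the other genes, so its fall raises their ratios in KO. Whether *Cldn11* in KO 1 would stay above WT without *Rhox5* in the reference was not tested. *Rnf20* overlapped, at -2.18, -2.32 and -2.05 in WT against -0.85, -3.70 and -3.34, and only KO 2 and KO 3 lay below WT.

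Junction genes of the tubule were mixed. Of 13 genes of tight and gap junctions, 12 were tested (*Tjp3* was not), 2 were called higher and 1 lower, no larger a share than the 23.0% and 23.7% of all tested genes. Without KO 1 there were 9 higher and 1 lower, beside 33.1% and 31.6%. *Gja1*, the gap junction protein connexin 43, rose from 5.13, 3.73 and 4.86 FPKM to 35.0, 67.9 and 62.3 FPKM in all KO samples. *Cldn3*, a claudin of newly formed tight junctions, had 25.2, 22.3 and 24.3 FPKM in WT and 9.64, 3.62 and 6.48 in KO (log2 fold change -2.71, SE 0.38, adjusted p = 0.000746). With total-count scaling *Cldn3* was not called (-1.86). *Cldn5*, also a marker of endothelium, was called higher. *F11r*, *Jam2*, *Cgn* and *Cxadr* lay above all WT samples in every KO sample. With edgeR they were called higher without KO 1 but not with it, and with DESeq2 they were called higher with all samples. *Ocln* was called higher without KO 1 by edgeR, at 1.10, 1.04 and 0.94 FPKM in WT against 0.93, 4.25 and 5.87 in KO.

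Of 10 genes of adherens junctions and ectoplasmic specialization, 3 were called higher and 1 lower, and 3 of 10 is near the 23.0% of all tested genes called higher. Without KO 1 there were 6 and 1, beside 33.1% and 31.6%. The catenin genes *Ctnnb1*, *Ctnna1* and *Ctnnd1* were those called higher, *Ctnnb1* at 23.0, 19.4 and 22.9 FPKM in WT and 121, 145 and 151 in KO. *Nectin3*, which spermatids carry where they bind nectin-2 of the Sertoli cell, fell from 176, 155 and 181 FPKM to 6.32, 14.0 and 12.4 FPKM. *Cdh2*, N-cadherin, had 8.78, 8.28 and 15.8 FPKM in WT and 2.43, 14.6 and 20.2 in KO. Its groups overlapped, with a log2 fold change of -0.71 (edgeR adjusted p = 0.37). *Ctnna2* was similar, at 4.65, 3.79 and 4.13 FPKM against 0.29, 6.73 and 9.71.

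Leydig cell transcripts were higher in every KO sample. Of 13 genes of Leydig cells and steroid synthesis, 12 were called higher and none lower, with KO 1 and without it, beside 23.0% and 33.1% of all tested genes called higher. On FPKM the groups did not overlap for any of the 13, beside 54.9%. *Hsd11b1* among the 13 passed the filter through the KO samples alone, so that it had to lie higher in KO. The list took 0.252%, 0.236% and 0.202% of counts in WT and 3.92%, 4.41% and 3.54% in KO. Its median log2 fold change was 3.60, and 4.45 with total counts.

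*Insl3* (chr8:71689252-71690577) had 4873, 5402 and 3700.25 FPKM in WT and 54592, 80266 and 65865 in KO, a log2 fold change of 2.97 (SE 0.39, adjusted p = 0.000602). *Cyp17a1*, which converts progestins to androgens, rose from 196, 74.2 and 167 FPKM to 3284, 3374 and 2233 FPKM. *Star*, which brings cholesterol into the mitochondrion, rose from 19.4, 12.2 and 20.4 FPKM to 946, 394 and 487 FPKM. KO 1 was the highest for *Star* and within the other KO samples for *Cyp17a1*. The receptor of luteinizing hormone, *Lhcgr*, went from 3.49, 1.76 and 2.47 FPKM to 93.4, 84.3 and 74.4 FPKM. Only *Hsd11b1* was not called, at 0.33, 0.28 and 0.45 FPKM against 4.11, 2.06 and 1.79. *Hsd3b1* and *Hsd3b6* are near-identical copies whose reads could be divided between them.

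The largest rises among called genes, taken with a KO mean of at least 10 FPKM, included genes of several tissues. The mast cell genes *Cma1* and *Tpsb2*, with log2 fold changes of 6.70 and 6.65, were not called with all samples and are not among them. *Cyp21a1*, the 21-hydroxylase known from the adrenal cortex, went from 0.87, 1.69 and 4.42 FPKM to 341, 234 and 200.4 FPKM. *Jchain*, the joining chain of secreted antibodies, went from 1.27, 1.16 and 0.67 FPKM to 97.5, 179 and 160 FPKM. *Fos*, an immediate-early gene, had 0.81, 0.69 and 0.56 FPKM in WT and 185, 40.1 and 72.9 in KO. Acute-phase genes were also among them, *Serpina3n* from 3.37, 3.67 and 3.59 to 298, 356 and 294 FPKM, and *Saa3* from 0.44, 1.56 and 0.66 to 78.9, 68.1 and 57.1 FPKM. The choice of these genes itself required groups without overlap.

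Lists of other interstitial cells differed in how many members were called. Of 12 macrophage genes, 10 were called higher and 1 lower, beside 23.0% and 23.7% of all tested genes. Without KO 1 there were 11 and 1, beside 33.1% and 31.6%, and the gene gained, *Cd163*, passed the filter through the KO samples alone. *Csf1r*, the receptor for the macrophage growth factor, had 2.42, 2.11 and 1.68 FPKM in WT and 81.9, 72.7 and 57.0 in KO. Its ligand *Csf1*, in the list of niche factors, went from 0.75, 0.69 and 0.83 FPKM to 32.3, 26.4 and 27.4 FPKM. *Aif1* was the macrophage gene called lower, at 626, 668 and 589 FPKM in WT and 29.1, 49.1 and 31.6 in KO, and its WT level was above that of every other macrophage gene in WT.

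Stromal fibroblast genes were called higher in 7 of 8 cases, beside 23.0% of all tested genes, and in 8 of 8 without KO 1, beside 33.1%. *Dcn*, decorin of the matrix, went from 42.4, 32.6 and 38.8 FPKM to 3024, 1109 and 1053 FPKM, highest in KO 1. Of 9 genes of peritubular myoid cells, the contractile cells around the tubule, 5 were called higher and 1 lower, beside 23.0% and 23.7% of all tested genes. Without KO 1 there were 7 and 1, beside 33.1% and 31.6%, and *Lmod1* among the 7 passed the filter through the KO samples alone. *Acta2*, smooth muscle actin, had 23.6, 18.5 and 13.7 FPKM in WT and 217, 120 and 185 in KO. *Actg2*, an actin of the same list, went the other way, from 255, 335 and 278 FPKM to 1.67, 2.22 and 3.60 FPKM. *Actg2* and *Aif1* therefore did not move with the other genes of their lists.

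Endothelial genes were called higher in 4 of 11 cases, and in 7 of 11 without KO 1, when *Flt1*, a receptor of vascular growth factor, was called lower (log2 fold change -1.37), beside 23.0% and 33.1% of all tested genes called higher. *Kdr*, among the 4, and *Tie1*, among the 7, passed the filter through the KO samples alone. With total-count scaling 7 of 11 were called higher, beside 36.7% of all tested genes. The call of *Flt1* was lost with total-count scaling (-0.60 without KO 1), and its FPKM overlapped. Of 12 genes of lymphocytes and mast cells, 11 were tested (*Ms4a1* was not) and 3 called higher (*Cd3g*, *Cd4* and *Ptprc*), near the 23.0% of all tested genes, or 8 without KO 1, beside 33.1%. *Ptprc*, the common leukocyte antigen, had 0.30, 0.27 and 0.29 FPKM in WT and 6.20, 7.35 and 5.06 in KO. Of those 11, 8 passed the filter through the KO samples alone, so that this count had to lean to KO. Globin transcripts differed among the KO samples, with *Hba-a1* at 32.5, 65.9 and 46.1 FPKM in WT and 1208, 605 and 238 in KO. Of 5 red blood cell genes, none was called by edgeR with all samples, beside 23.0% of all tested genes higher and 23.7% lower. Without KO 1, 3 globin genes were called higher and *Alas2*, the first enzyme of haem synthesis in red cells, lower, beside 33.1% and 31.6%. The call of *Alas2* was lost with total-count scaling (-0.58 without KO 1). The epididymis is the duct attached to the testis. Of 6 epididymal genes in the table, 5 stayed at or below 0.26 FPKM in all samples, and *Cst11* had 1.99, 29.5 and 33.9 FPKM in KO against at most 0.86 in WT.

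Of 7 growth factors of the stem cell niche, the 6 that were tested were called higher, with KO 1 and without it, beside 23.0% and 33.1% of all tested genes. *Fgf2* among them passed the filter through the KO samples alone, so that it had to differ. *Gdnf*, the factor from Sertoli cells that keeps stem cells renewing, was too low to test. *Gdnf* had 0.25, 0.21 and 0.27 FPKM in WT, and 0.28, 0.91 and 1.54 in KO. *Kitl*, the ligand of *Kit*, rose from 1.76, 1.91 and 2.20 FPKM to 24.5, 23.7 and 30.0 FPKM. *Cxcl12*, a chemokine, rose from 3.68, 2.83 and 5.81 FPKM to 252, 159 and 143 FPKM. In contrast to the Sertoli cell list, KO 1 was above both other KO samples for 5 of these 6 genes.

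Of 18 genes of apoptosis, 17 were tested (*Fasl* was not), 10 were called higher and 1 lower, beside 23.0% and 23.7% of all tested genes. Without KO 1 there were 15 higher and 0 lower, beside 33.1% and 31.6%. *Bcl2* and *Apaf1*, both counted as higher, passed the filter through the KO samples alone. The pore former *Bax* rose from 13.9, 12.8 and 9.47 FPKM to 78.0, 68.5 and 80.4 FPKM, and the death receptor *Fas* from 0.20, 0.70 and 0.35 to 11.8, 9.27 and 9.34 FPKM. *Trp53* rose from 7.34, 7.15 and 7.25 FPKM to 47.7, 41.3 and 52.2 FPKM. *Pmaip1*, a BH3-only gene, divided the KO samples, with 0.91, 0.69 and 0.67 FPKM in WT, 1.89 in KO 1, and 14.6 and 30.5 in KO 2 and KO 3. *Bcl2l1*, which protects cells from death, was the member called lower, by 1.20, but not with total counts or without KO 1, and its FPKM overlapped (30.7, 28.9 and 32.4 against 19.5, 27.6 and 31.2). All of these are levels in whole tissue, and the macrophage, stromal and Leydig cell lists rose in the same libraries, whose part in the apoptosis values was not tested.

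The sex chromosomes and the protamine cluster stood out by share of counts. In spermatocytes the X chromosome is silenced, and somatic cells keep it active. Genes of the X chromosome held 1.45%, 1.29% and 1.35% of counts in WT and 3.23%, 3.17% and 3.28% in KO, a ratio of 2.37 (exact two-sided permutation p = 0.1, the smallest possible). The samples of each group lay close together, KO 1 included. Of 758 tested X-linked genes, 35.9% were called higher and 21.4% lower, with a median log2 fold change of 0.67, whereas the medians of the autosomes ran from -0.50 to 0.32 and their shares called higher from 17.9% to 27.7%. Of 107 tested Y-linked genes, 2.8% were called higher and 36.4% lower, with a median of -5.50. Over all tested autosomal genes, 22.5% were called higher and 23.7% lower. Chromosome 16, which carries *Prm1*, *Prm2*, *Prm3* and *Tnp2*, went from 5.71%, 6.17% and 5.01% of counts to 2.41%, 2.37% and 2.46%, and from 16.7%, 18.2% and 14.0% of TPM to 2.18%, 2.01% and 2.03%. The p of 0.1 was not particular to X. Chromosomes 8, 17 and 19 also gave an exact permutation p of 0.1, with KO to WT ratios of counts of 1.37, 0.683 and 1.4.

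**Figure D5:**
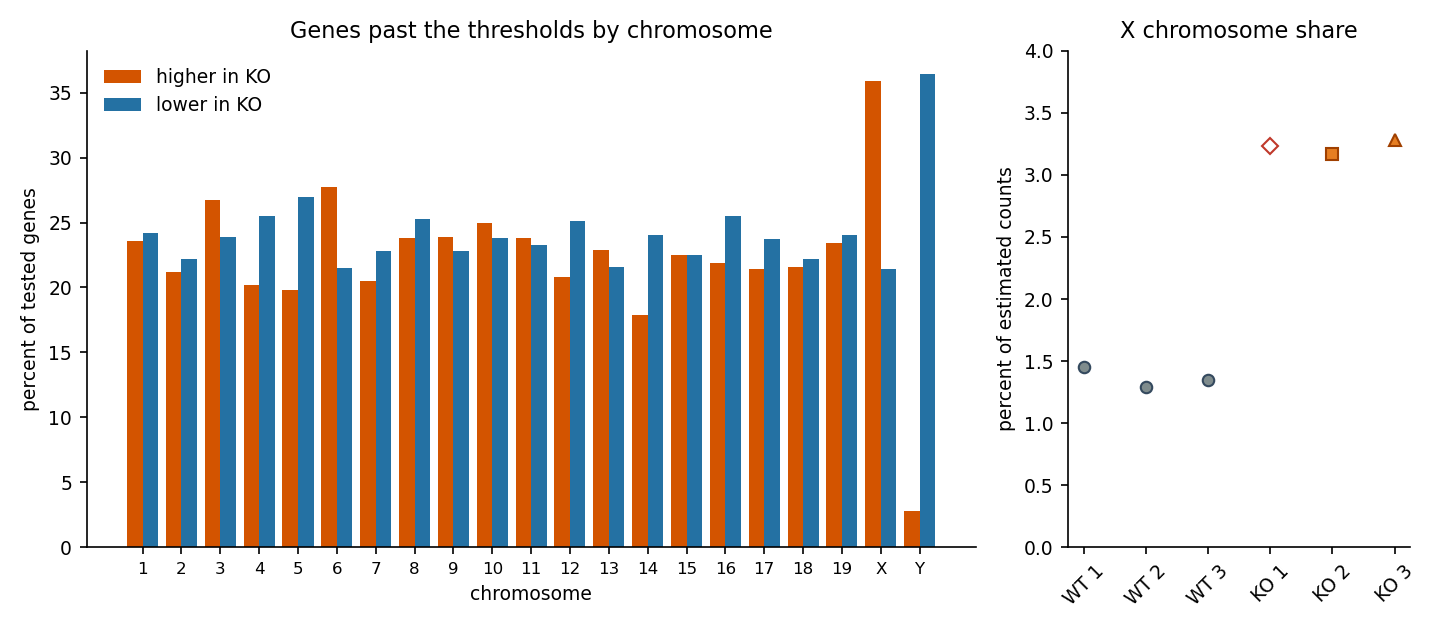
Left, percent of tested genes called higher or lower in KO by chromosome. Right, percent of estimated counts from X-linked genes in each sample. The X chromosome has the tallest bar for higher genes (35.9%) and the Y chromosome for lower genes (36.4%), and the KO samples lie between 3.17% and 3.28% against 1.29% to 1.45% in WT.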

How the data were processed

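The submitters' notes name HISAT, Bowtie2 and GRCm38.p6. The study's methods, given for its Sertoli cell libraries, add RSEM for the levels, and read filters, tool versions and strand handling are not given in the sources used here. The deposited adult table holds estimated counts, not normalized, which were rounded before testing. The FPKM values deposited by the authors are scaled by gene length and total, and the TPM values of the authors add up to a fixed total per sample. A further 20 columns were empty. The day 7 table was not used here, and some genes the rule names are not reported here.

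Genes with 0.5 FPKM in at least 3 samples were tested (15919 of 20007) with edgeR 4.0.16 quasi-likelihood tests, TMM scaling and Benjamini-Hochberg adjustment, and the thresholds were those of the study's methods. Total counts were close to even across samples. The procedure was tested on simulated data, scored at an edgeR adjusted p under 0.05 with no minimum fold, a looser rule than that of the calls. Even so, it missed nearly all of the smaller changes and most of the larger ones. A gene not called is therefore not shown to be unchanged. Named genes were the gene lists, 12 isoform pairs, genes in the study's text and the 10 highest genes of each group. The 15 largest rises and 15 largest falls among called genes, without overlap and with at least 10 FPKM, were also named. A few others are named as chosen after their values were seen. Members and lists were chosen with earlier results of these data known. Ratios used log2(FPKM + 0.1) and exact permutation tests. Alternatives covered scaling, DESeq2 1.42.0, limma 3.58.1, filters, a replicate block, other thresholds and each sample left out. Total-count scaling without KO 1 was added after seeing the data. Gene positions and promoters are from RefSeq (19947 of 20007 identifiers matched). Software was scipy 1.17.1, pandas 2.3.3 and numpy 2.4.6 under Python 3.11.15, with R 4.3.3.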

Additional observations from a re-analysis of the deposited data

How the results depend on the processing

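Calls depended on scaling and on single samples, and the cause was not tested. Against 3660 genes higher and 3772 lower, median-ratio scaling gave 3173 and 4186, total-count scaling 5836 and 2252, upper-quartile scaling 5109 and 2831, Sertoli list scaling 497 and 2856, DESeq2 4603 and 5653, no filter on low values 3670 and 3704, and a mean of at least 1 FPKM 3505 and 3451. With limma the counts were 5867 and 2468 on log2(FPKM + 0.1), 5689 and 3115 on log2(FPKM + 1), and 6203 and 1948 on log2(TPM + 0.1). An adjusted p under 0.05 with no minimum fold gave 6503 and 6466. Leaving out single samples gave 1082 to 5270 higher and 1613 to 5031 lower: 1339 and 1793 without WT 1, 1082 and 1613 without WT 2, 1094 and 1641 without WT 3, 1709 and 1684 without KO 2, and 2734 and 1951 without KO 3. Total-count scaling without KO 1, chosen after seeing the data, gave 7269 and 3772.

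The samples share replicate numbers, but same-numbered samples did not deviate together (r = 0.016, 0.017 and 0.025 across genes), so the numbers were not taken as pairs. With a replicate block edgeR called 0 genes in each direction, and 6061 higher and 6148 lower at an adjusted p under 0.05, and *Klk1b21* moved to -0.35.

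By percent of TPM, the KO to WT ratio was 1.75 for chromosome X, 0.241 for Y and 0.127 for 16. Chromosome 8, which carries *Insl3*, went from 4.82%, 4.8% and 4.87% of TPM in WT to 11.1%, 14.4% and 13.3% in KO. The 12 pair ratios were lower in KO under each setting tried.

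Some log2 fold changes changed sign. With median-ratio scaling, the value was *Rnf20* (-0.08). With DESeq2, the value was *Rnf20* (-0.08). With total-count scaling, values were *Paf1* (0.54), *Ctr9* (0.4), *Cdc73* (0.54), *Leo1* (0.26), *Rtf1* (0.78), *Rps27* (0.41), *Rpl38* (0.5), *Stra8* (0.78), *Actb* (0.19), *Rhox8* (0.6), *Cdh2* (0.18), *Ctnna2* (0.37). With upper-quartile scaling, values were *Paf1* (0.24), *Ctr9* (0.1), *Cdc73* (0.25), *Rtf1* (0.48), *Rps27* (0.14), *Rpl38* (0.21), *Stra8* (0.43), *Rhox8* (0.29), *Ctnna2* (0.04). With limma on log2(FPKM + 0.1), values were *Paf1* (0.51), *Ctr9* (0.37), *Cdc73* (0.48), *Leo1* (0.26), *Rtf1* (0.76), *Rps27* (0.42), *Rpl38* (0.55), *Actb* (0.19), *Rhox8* (0.48). With limma on log2(FPKM + 1), values were *Paf1* (0.49), *Ctr9* (0.35), *Cdc73* (0.41), *Leo1* (0.25), *Rtf1* (0.71), *Rps27* (0.42), *Rpl38* (0.55), *Actb* (0.18), *Rhox8* (0.46). With limma on log2(TPM + 0.1), values were *Paf1* (0.76), *Ctr9* (0.62), *Cdc73* (0.72), *Leo1* (0.51), *Rtf1* (1), *Rps27* (0.67), *Rpl38* (0.8), *Actb* (0.43), *Rhox8* (0.73), *Cdh2* (0.03). With total-count scaling and without KO replicate 1, values were *Paf1* (0.66), *Ctr9* (0.57), *Cdc73* (0.71), *Leo1* (0.33), *Rtf1* (0.94), *Rps27* (0.18), *Rpl38* (0.38), *Stra8* (1.36), *Actb* (0.13), *Rhox8* (0.92), *Cdh2* (0.66), *Ctnna2* (0.93). Without KO replicate 1, values were *Rtf1* (0.18), *Stra8* (0.57), *Rhox8* (0.16), *Ctnna2* (0.16). With Sertoli list scaling, values were *Utf1* (-0.12), *Klk1b21* (-0.54), *Klk1b24* (-0.01), *Uchl1* (-0.28). Without KO replicate 2, values were *Klk1b21* (-0.84), *Klk1b24* (-0.29). Over the samples left out in turn, *Rtf1* ran from -0.16 to 0.18, *Stra8* from -1.24 to 0.57, *Rhox8* from -0.42 to 0.16, *Ctnna2* from -0.99 to 0.16, *Klk1b21* from -0.84 to 1.32 and *Klk1b24* from -0.29 to 1.85.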

Other observations

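Kallikrein genes of the Klk1b family, serine proteases known from Leydig cells, differed between the KO libraries. They were chosen after their values were seen. *Klk1b21* had 64.9, 46.1 and 50.4 FPKM in WT, 6.73 in KO 1, 337 in KO 2 and 106 in KO 3. *Klk1b24* had 52.5, 21.4 and 31.9 FPKM in WT and 4.59, 314 and 103 in KO. KO 1 lay below every WT sample for both, and the other KO samples lay above every WT sample, although the Leydig cell list was high in all KO libraries. The members of this family are close in sequence, and reads may be shared. With TMM scaling edgeR called neither, with all samples or without KO 1, whereas with total-count scaling and without KO 1 both were called higher (log2 fold changes 2.04 and 2.56).

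The renin genes rose evenly. *Ren1* had 2.12, 2.13 and 1.37 FPKM in WT and 58.2, 51.4 and 55.2 in KO (edgeR log2 fold change 4.01, SE 0.23, adjusted p = 3.8e-05), and *Ren2*, a near-identical copy, had 0, 0.40 and 0 FPKM in WT and 42.7, 50.2 and 63.5 in KO. *Uchl1*, a deubiquitinase abundant in spermatogonia, had 49.3, 45.2 and 37.7 FPKM in WT, 6.72 in KO 1, and 189 and 297 in KO 2 and KO 3, so that KO 1 stood on the opposite side of WT from the other KO libraries. *Ren1* and *Uchl1* were also chosen after their values were seen. *Ren2* passed the filter through the KO samples alone, so that it had to lie higher in KO.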
